A study of Equus caballus with 19 samples.

Results

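The 10 genes described here encode the lysyl oxidases LOX, LOXL1, LOXL2, LOXL3 and LOXL4, the lysyl hydroxylases PLOD1 and PLOD2, the prolyl 4-hydroxylase subunits P4HA1 and P4HA2, and the collagen chaperone SERPINH1. They were chosen by name for their place in collagen modification and cross-linking, with earlier results of these data known. All 10 were found among the 29196 gene rows of both deposited tables. Each passed the filter on low values in both batches, so none is left out of any comparison below.

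The study exposed equine tenocytes, the resident fibroblasts of tendon, to interleukin 1 beta (IL-1β), an inflammatory cytokine, and asked what its receptor antagonist protein IL1Ra would restore. The cells were wild type, grown from the superficial digital flexor tendon of adult horses, seeded in gels of bovine type 1 collagen and harvested on day 14. In the first batch, lines 1 to 5 were each cultured without cytokine (control, 5 libraries) and with 1 nM IL-1β (5 libraries). Lines 6 to 8 of the second batch each gave 3 libraries, namely a control, a culture with IL-1β at the same dose, and a culture that received IL1Ra at 100 ng/mL in addition. Each line came from a separate donor, and a line is a passaged culture rather than tendon tissue. IL1Ra without IL-1β was not sequenced, and IL1Ra was tested only in the second batch.

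Collagen chains are modified before and after they leave the cell. In the endoplasmic reticulum, prolyl 4-hydroxylases hydroxylate proline, which stabilises the triple helix, lysyl hydroxylases hydroxylate lysine, and SERPINH1 (also called HSP47) binds the folded helix. Outside the cell, the copper-dependent lysyl oxidases convert lysine and hydroxylysine to reactive aldehydes, from which the covalent cross-links that give a tendon fibril its tensile strength are formed.

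The values are gene counts normalised by the authors within each batch, called normalised counts below. They summed to 43.4 to 49.2 M per library (M for counts × 1e+06) in the first batch and 25.0 to 34.6 M in the second. Within a condition, libraries of different lines correlated at 0.912 to 0.977 in the first batch. In the second batch, line 6 stood apart, with correlations of 0.850 to 0.906 with lines 7 and 8, against 0.937 to 0.954 between lines 7 and 8. The tendon transcription factor SCX was measured at 4720 normalised counts in the control of line 6, 266 in that of line 7 and 105 in that of line 8, against 822 to 2110 in the 5 controls of the first batch. The tenocyte marker MKX was at 4059, 151 and 11.5 in these controls, against 792 to 4654 in the first batch. COMP was at 51392, 1069 and 131, against 5057 to 104386. For MKX and COMP, line 6 was thus within the first batch range and lines 7 and 8 were below it. TNC differed less, at 39094 to 71309 in the second batch controls against 35007 to 120674 in the first. TNMD, a marker of mature tendon cells, was at 1.00 or below in all libraries. These are bulk libraries, so a smaller share of cells expressing a gene and less of its RNA per cell cannot be told apart.

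**Figure D1:**
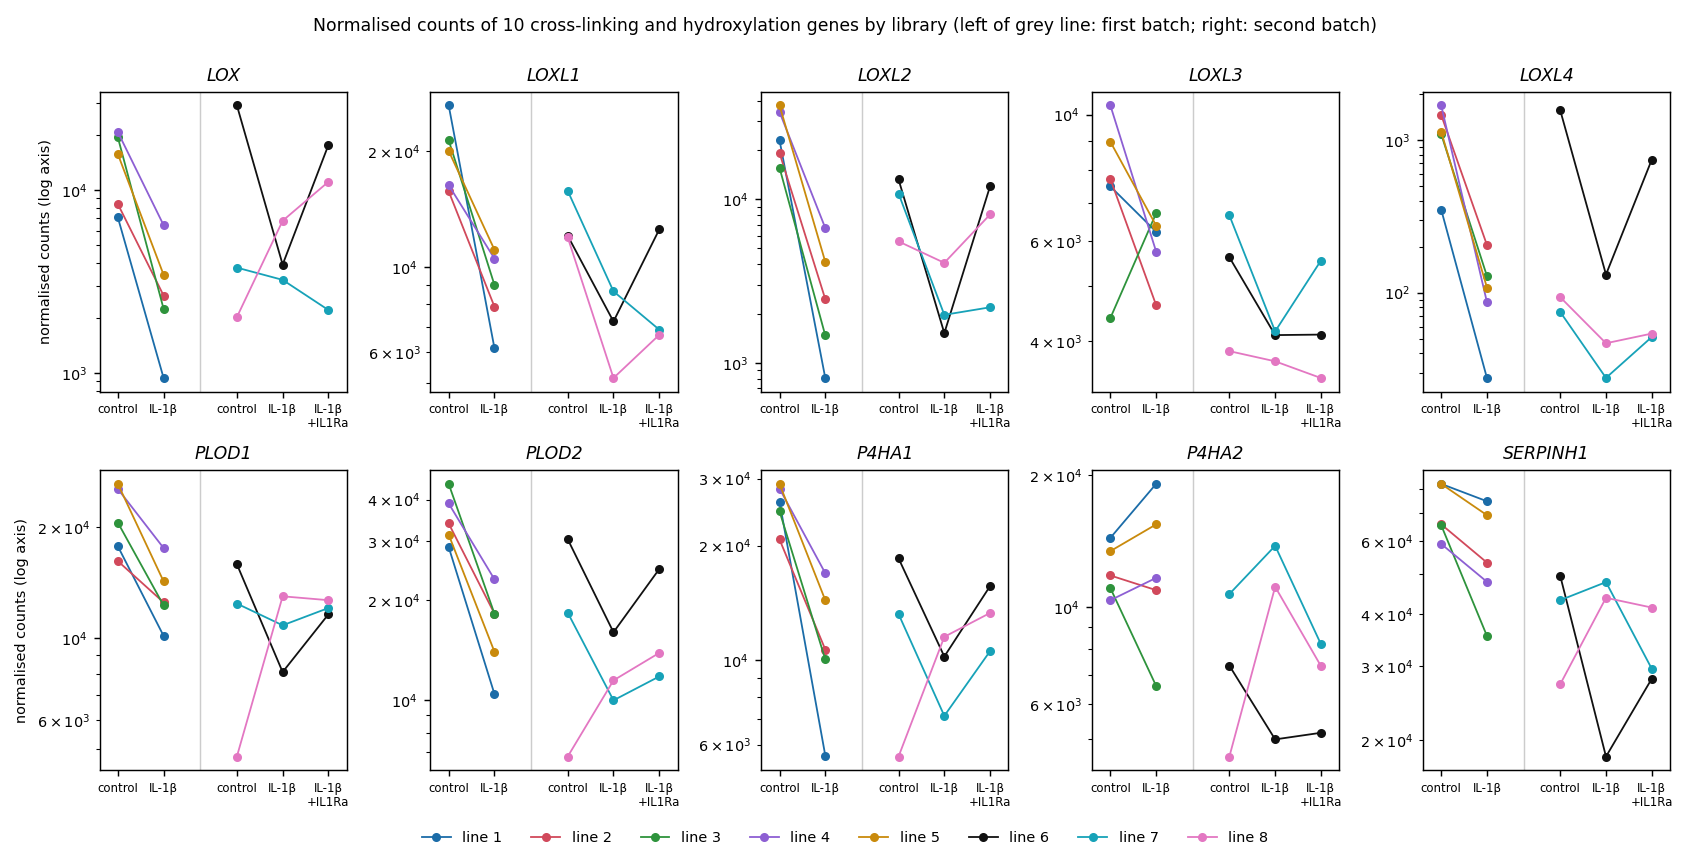
Normalised counts (vertical log axis) of the 10 genes in each library, with the control and IL-1β libraries of lines 1 to 5 left of the grey line and the control, IL-1β and IL-1β + IL1Ra libraries of lines 6 to 8 right of it. Each point is 1 library and each coloured line joins the libraries of 1 tenocyte line, so that LOXL2 can be seen to lie at 15598 to 37497 in the first batch controls and at 808 to 6669 with IL-1β, while line 8 starts from the lowest control value of the second batch for 9 of the 10 genes.

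In the first batch, 4 of the 5 lysyl oxidases fell with IL-1β. LOXL4 fell by 3.43 on the log2 scale, LOXL2 fell by 3.35, LOX fell by 2.32 and LOXL1 fell by 1.17, whereas LOXL3 was not differentially expressed (DE). Genes were called DE at an adjusted p value under 0.05 together with a log2-fold change of 1 or more in either direction, from limma on log2(normalised count + 1) over 14719 genes.

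LOX is the founding lysyl oxidase and acts on fibrillar collagen and elastin. In lines 1 to 5, the controls held 7078, 8375, 19410, 20727 and 15718 normalised counts of LOX. The IL-1β libraries of the same lines held 936, 2645, 2236, 6415 and 3433. The lowest control was above the highest IL-1β library, and what remained of LOX ranged from 11.5% of the control in line 3 to 31.6% in line 2. The mean was 14262 ± 6259 in control and 3133 ± 2045 with IL-1β (SD, n = 5), a 4.98-fold fall (standard error 0.48 on the log2 scale, limma adjusted p = 0.00586).

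LOXL2 is known to oxidise basement membrane collagen IV as well as fibrillar collagens. Its control libraries in lines 1 to 5 held 22970, 19190, 15598, 34180 and 37497 normalised counts. With IL-1β they held 808, 2452, 1470, 6669 and 4142. The groups did not overlap, and line 1 kept the smallest share of its control level at 3.52%, while line 4 kept the largest at 19.5%. This was a 10.2-fold fall (standard error 0.51 on the log2 scale, limma adjusted p = 0.00122).

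LOXL4 is a family member with scavenger receptor domains like those of LOXL2 and LOXL3. The controls of lines 1 to 5 held 350, 1456, 1090, 1681 and 1131. The IL-1β libraries held 27.6, 205, 128, 86.5 and 108. Again the groups did not overlap, and each line kept between 5.15% and 14.1% of its own control level. LOXL4 fell 10.8-fold (standard error 0.55 on the log2 scale, limma adjusted p = 0.00151).

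LOXL1, which is best known for elastic fibre assembly, fell less. Its controls in lines 1 to 5 held 26313, 15730, 21357, 16320 and 20036 normalised counts, and the IL-1β libraries 6154, 7889, 8984, 10518 and 11089. The 2.24-fold fall (limma adjusted p = 0.00158) was largest in line 1, which kept 23.4% of its control level where the other lines kept 42.1% to 64.4%. Without line 1 the log2-fold change of LOXL1 was −0.93 (limma adjusted p = 0.00374), under the fold threshold.

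LOXL3 held 7483, 7715, 4394, 10385 and 8965 normalised counts in the controls of lines 1 to 5 and 6229, 4631, 6712, 5751 and 6387 with IL-1β. Line 3 was the lowest control and the highest IL-1β library, and it was the line in which LOXL3 was higher with the cytokine (152.8% of control). The log2-fold change was −0.35, with a 95% confidence interval of −0.81 to 0.11 (limma adjusted p = 0.243).

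Among the intracellular enzymes, PLOD2 and P4HA1 fell and their relatives PLOD1 and P4HA2 did not pass both thresholds. PLOD2, the lysyl hydroxylase of the telopeptides, whose product sets which type of cross-link forms, held 28813, 33911, 44576, 38939 and 31392 normalised counts in the controls of lines 1 to 5. With IL-1β it held 10439, 18181, 18180, 23055 and 13980. The groups did not overlap, and PLOD2 fell 2.17-fold (standard error 0.21 on the log2 scale, limma adjusted p = 0.00332).

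PLOD1, which hydroxylates lysine in the helical part of the chain, was lower in 5 of 5 lines, but the groups overlapped. Its range was 16180 to 26216 in control and 10133 to 17553 with IL-1β. The difference passed the p threshold and not the fold threshold, with a log2-fold change of −0.67 (limma adjusted p = 0.0181).

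P4HA1 and P4HA2 are alternative catalytic subunits of prolyl 4-hydroxylase, each paired with the shared subunit P4HB. P4HA1 held 26101, 20753, 24607, 28230 and 29040 normalised counts in the controls of lines 1 to 5 and 5615, 10663, 10044, 16919 and 14371 with IL-1β. The lowest control exceeded the highest IL-1β library, and the fall was 2.37-fold (standard error 0.26 on the log2 scale, limma adjusted p = 0.00558). Line 1 kept 21.5% of its control level of P4HA1 where the other lines kept 40.8% to 59.9%. P4HA2 held 14372, 11795, 11039, 10354 and 13404 in the controls and 19096, 10918, 6598, 11645 and 15429 with IL-1β. P4HA2 was higher with IL-1β in lines 1, 4 and 5 and lower in lines 2 and 3, with a log2-fold change of −0.01 and a 95% confidence interval of −0.56 to 0.53 (limma adjusted p = 0.975).

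SERPINH1 was lower with IL-1β in 5 of 5 lines by a small margin. The controls held 82266, 65790, 65484, 59043 and 82266 normalised counts and the IL-1β libraries 74734, 53245, 35501, 47882 and 69202. The groups overlapped, and the log2-fold change of −0.38 (95% confidence interval −0.85 to 0.10) was not DE (limma adjusted p = 0.219). With the tenocyte line as a block in the fit the interval was −0.72 to −0.035 and excluded 0, but SERPINH1 was again not DE (limma adjusted p = 0.0729).

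Thus 6 of the 10 genes were DE and lower with IL-1β in the first batch, and 0 were DE and higher. Of all 14719 genes tested there, 7.9% were DE and lower. By adjusted p value alone, 7 of the 10 were lower, against 14.6% of all genes. The 6 DE genes were also those whose groups did not overlap, against 10.2% of all genes lower without overlap, and 8 of the 10 were lower in every line, against 25% of all genes. The median log2-fold change of the 10 genes was −1.14, and that of all genes was −0.0034. Because the 10 were chosen with earlier results of these data known, the values for all genes give scale and are no test. With the tenocyte line as a block in the limma fit, the same 6 genes were DE, with adjusted p values of 0.000209 (LOXL4) to 0.00506 (LOXL1).

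**Figure D2:**
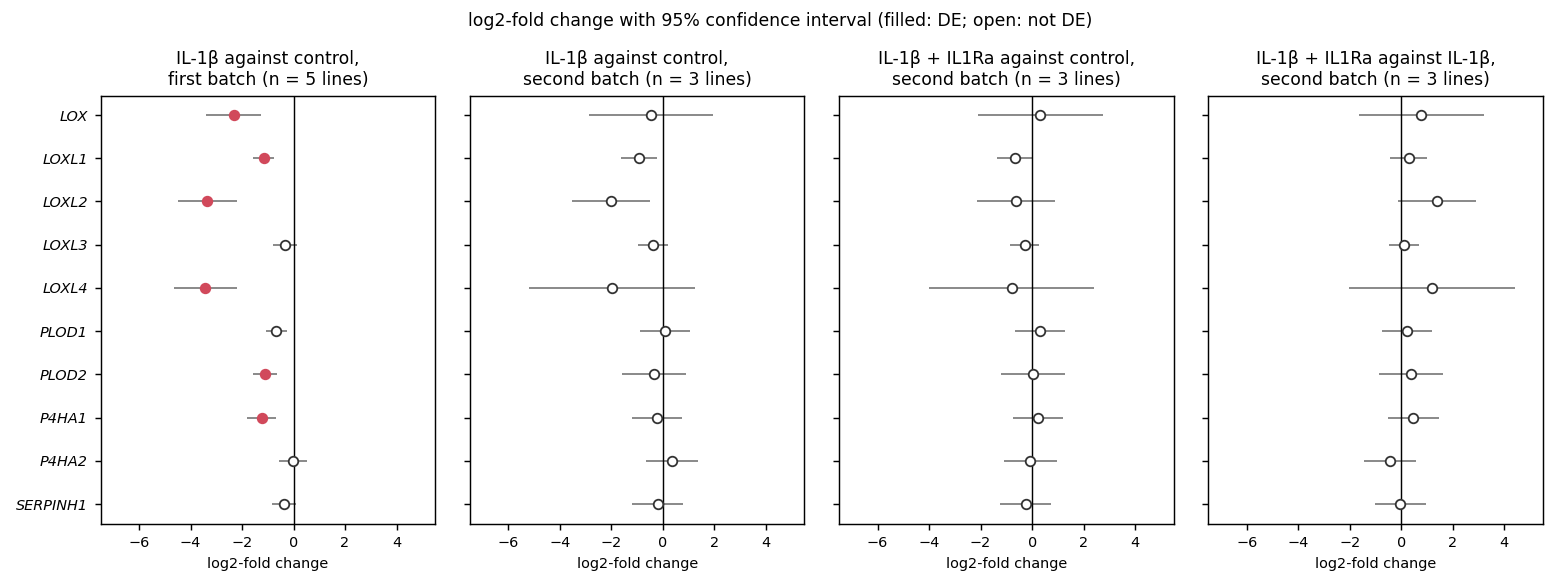
log2-fold change (horizontal axis) with its 95% confidence interval for the 10 genes in the 4 comparisons, filled where DE and open where not. In the first batch LOX, LOXL1, LOXL2, LOXL4, PLOD2 and P4HA1 are filled and lie between −3.43 and −1.12, and in the second batch every point is open, with intervals that reach from −5.20 to 4.40.

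Markers of other cell types were measured beside these genes. Of 9 leukocyte markers, the pan-leukocyte gene PTPRC was at 3.64 or below and TYROBP and CD3E were at 0 in all first batch libraries, while the summed list ranged from 81.9 to 2111 in control and from 358 to 3751 with IL-1β, with counts from CD68, ITGAX and, in some libraries, CD14. The 6 endothelial markers summed to 30.6 to 57.5 in control and 22.4 to 92.0 with IL-1β. The summed smooth muscle and pericyte list (5 of 5 markers detected, most counts from ACTA2) was 33443 to 91454 in control and 11763 to 25126 with IL-1β. Chondrocyte markers summed to 7416 to 42962 and 100.0 to 1153, carried by ACAN and SOX9 with COL2A1 at 4.15 or below, and epithelial markers to 1415 to 3916 and 31.4 to 546, carried by CDH1 with EPCAM at 1.21 or below. The tenocyte marker SCX was at 822 to 2110 in control and 9.69 to 205 with IL-1β. The smooth muscle, chondrocyte and epithelial sums and SCX moved with the 6 DE genes, and their part in the result was not tested. Single markers of these lists went the other way. The tenocyte marker DCN had a median of 59314 in control and 117019 with IL-1β. The chondrocyte marker MATN3 had medians of 7.13 and 18.1. The second batch had summed chondrocyte markers of 547 to 12924 in control and 67.8 to 346 with IL-1β, and summed leukocyte markers of 334 to 1310 and 779 to 3164 with PTPRC at 6.46 or below, while its smooth muscle, endothelial and epithelial sums overlapped between these conditions.

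Ratios between related genes within a library do not depend on how libraries are scaled, and 7 such ratios were compared. The P4HA2/P4HA1 ratio was 0.551, 0.568, 0.449, 0.367 and 0.462 in the controls of lines 1 to 5. With IL-1β it was 3.40, 1.02, 0.657, 0.688 and 1.07. It was higher in 5 of 5 lines without overlap of the groups, by 1.23 on the log2 scale or 2.35-fold (exact permutation test, two-sided, p = 0.00794 and 0.0278 adjusted over 7 ratios). With 5 against 5 libraries this test cannot give less.

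The ratio of SERPINH1 to COL1A1, a chain of the type I collagen that it binds, was 0.141, 0.145, 0.119, 0.0834 and 0.0939 in the controls and 0.532, 0.337, 0.395, 0.181 and 0.233 with IL-1β. It was also higher in 5 of 5 lines without overlap, by 1.46 on the log2 scale or 2.75-fold (exact permutation test, p = 0.00794, adjusted 0.0278). Of its parts, COL1A1 fell by 1.83 on the log2 scale and SERPINH1 had a log2-fold change of −0.38.

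Relative to LOX, the other lysyl oxidases moved in different directions. The mean log2 ratio of LOXL3 to LOX was −0.80 in control and 1.17 with IL-1β, and that of LOXL2 to LOX was 0.91 in control and −0.12 with IL-1β, each in the same direction in 5 of 5 lines. The exact permutation p values were 0.0238 and 0.0397 before adjustment, and 0.0556 and 0.0694 after it, so neither passed. The ratios LOXL1/LOX, LOXL4/LOX and PLOD2/PLOD1 differed by 1.15, −1.12 and −0.45 on the log2 scale, with adjusted exact permutation p values of 0.0794 for each. When the exact test was made within lines by flipping signs, its smallest possible p was 0.0625, so it could not pass for any ratio.

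**Figure D3:**
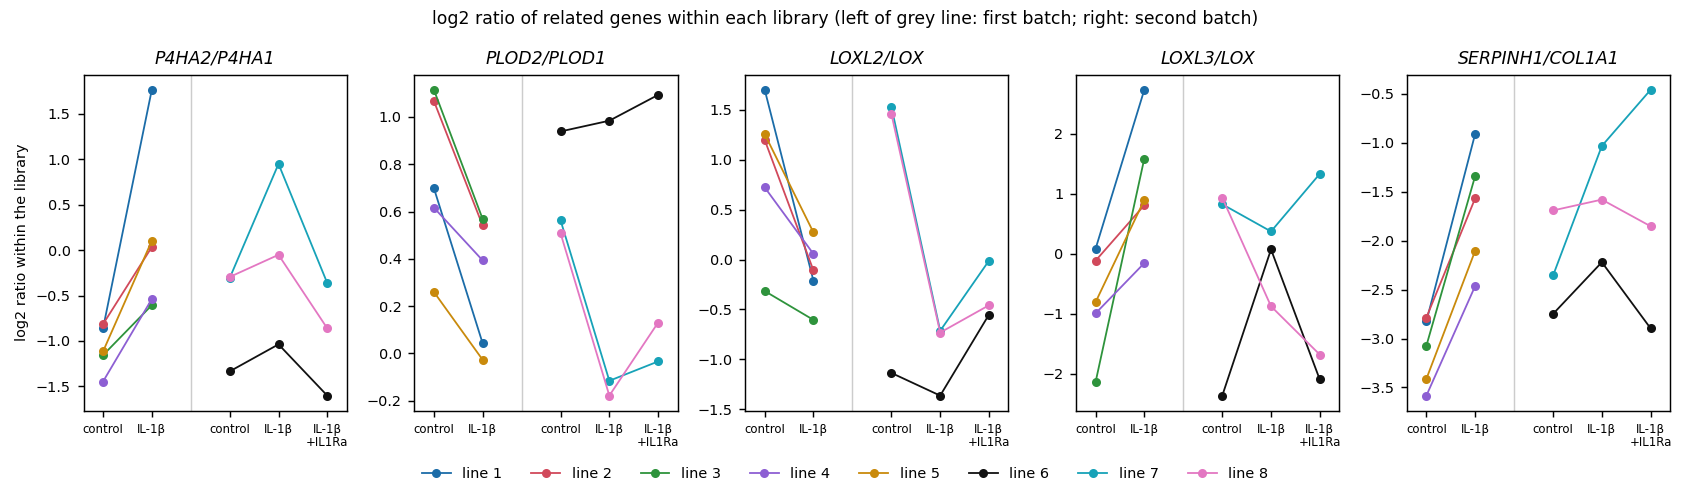
log2 ratio of 2 genes within each library (vertical axis), drawn as points joined by tenocyte line, with the first batch left of the grey line and the second batch right of it. In the first batch P4HA2/P4HA1 and SERPINH1/COL1A1 are higher with IL-1β in all 5 lines without overlap, by 1.23 and 1.46, and in the second batch P4HA2/P4HA1 is higher with IL-1β than in control in all 3 lines and lower again with IL1Ra in all 3.

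The second batch asked the same question in 3 other lines and added IL1Ra. None of the 10 genes was DE between IL-1β and control there, where 0.341% of 16705 genes were DE. With the line as a block 5.18% of all genes were DE, and again 0 of the 10. In the fit without the block, LOXL1 and LOXL2 had an unadjusted p under 0.05 in limma, as had 11.4% of all genes. They were the 2 members lower without overlap of the groups, which held for 7.61% of all genes. The median log2-fold change was −0.37 for the 10 genes and −0.0084 for all genes.

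LOXL2 in lines 6, 7 and 8 held 13216, 10837 and 5523 normalised counts in control and 1520, 1965 and 4086 with IL-1β. It was lower in each line, but line 8 kept 74.0% of its control level where lines 6 and 7 kept 11.5% and 18.1%. The log2-fold change was −2.01 with a 95% confidence interval of −3.52 to −0.49 (limma adjusted p = 0.284). LOXL1 held 12057, 15777 and 11946 in control and 7219, 8644 and 5147 with IL-1β, with a log2-fold change of −0.94 and an interval of −1.64 to −0.24 (limma adjusted p = 0.280). LOXL1 was the member whose within-line shares were closest together in this batch, at 43.1% to 59.9% of control.

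LOXL4 was lower in 3 of 3 lines but from very different starting levels, 1562 in line 6 against 74.8 and 93.4 in lines 7 and 8. The IL-1β libraries held 131, 27.7 and 46.6, and the log2-fold change was −1.98 with an interval of −5.20 to 1.23 (limma adjusted p = 0.696). With the line as a block the interval was −3.16 to −0.81 and LOXL4 was again not DE (limma adjusted p = 0.0646). LOXL3 was also lower in 3 of 3 lines, by between 0.06 and 0.68 on the log2 scale. Together LOXL1, LOXL2, LOXL3 and LOXL4 were the 4 members lower in every line, against 18.9% of all genes.

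LOX went in opposite directions among the lines of the second batch. Its controls held 29026, 3760 and 2015 normalised counts in lines 6, 7 and 8, and the IL-1β libraries 3907, 3222 and 6782. IL-1β thus left 13.5% of the control level in line 6 and 85.7% in line 7, while line 8 with IL-1β was at 336.7% of its control. The log2-fold change of −0.45 had an interval of −2.87 to 1.96 (limma adjusted p = 0.940). It was 0.76 without line 6 and −1.56 without line 8.

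Line 8 differed from lines 6 and 7 in direction. With IL-1β, 10 of 10 members were lower than control in line 6 and 8 of 10 in line 7, but 4 of 10 in line 8, and the median log2 ratio over the 10 genes was −0.95, −0.77 and 0.72 in these lines. The control of line 8 held 4765 normalised counts of PLOD1, 6774 of PLOD2 and 5580 of P4HA1, the lowest of the 9 libraries for each of the 3 genes. The corresponding controls of lines 6 and 7 held 15867 and 12403 of PLOD1, 30416 and 18314 of PLOD2, and 18511 and 13219 of P4HA1. COL1A1 in that library was also the lowest of the 3 controls, at 87792 against 332642 and 221346.

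In both lines 6 and 7, 8 of the 10 genes were lower with IL-1β, against 25.4% of all genes, a count that was chosen after the values were seen. They were LOX, LOXL1, LOXL2, LOXL3, LOXL4, PLOD1, PLOD2 and P4HA1. Each line was also left out in turn. Without line 8 the log2-fold change of PLOD1 was −0.58 in place of 0.09, that of PLOD2 −0.90 in place of −0.35, that of P4HA1 −0.87 in place of −0.23 and that of SERPINH1 −0.65 in place of −0.20. Without line 6 the same 4 values were 0.62, −0.06, 0.08 and 0.42, so that P4HA1 and SERPINH1 changed sign. None of these was DE in any of the settings. Whether the batches differ in their response was not tested.

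P4HA2 held 7338, 10696 and 4548 normalised counts in the controls of lines 6, 7 and 8 and 4979, 13787 and 11112 with IL-1β. Its log2-fold change was 0.37 with an interval of −0.65 to 1.38. The P4HA2/P4HA1 ratio was nevertheless higher with IL-1β in 3 of 3 lines, by 0.24 to 1.26 on the log2 scale. SERPINH1/COL1A1 was higher in 3 of 3 lines as well, by 0.11 to 1.32. With 3 against 3 libraries an exact permutation test cannot give less than 0.1, so these ratios are given as values.

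**Figure D4:**
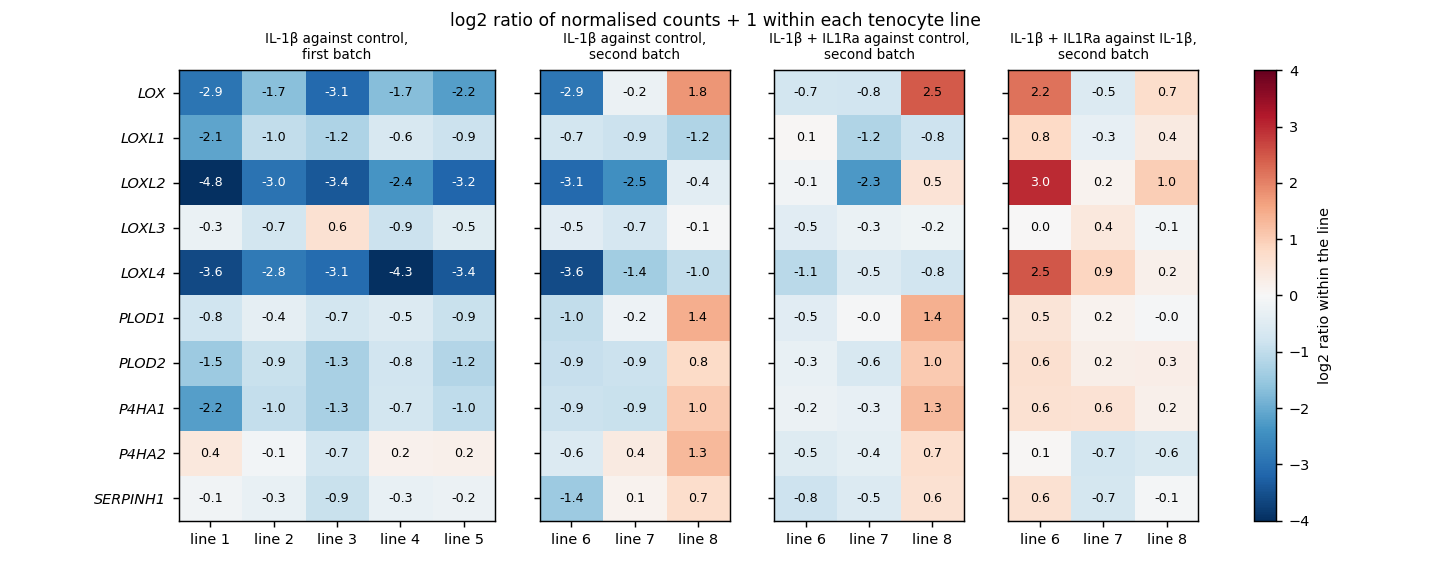
log2 ratio of normalised counts + 1 within each tenocyte line for the 10 genes (rows) in the 4 comparisons (panels, with 1 column per line), blue where lower and red where higher than the reference condition. Under IL-1β lines 1 to 7 are mostly blue and line 8 has 6 red cells, and in the IL-1β + IL1Ra against IL-1β panel line 6 has 10 ratios above 0.

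With IL-1β + IL1Ra, none of the 10 genes was DE against control, where 0.012% of all genes were DE and 0.251% with the line as a block. In the fit without the block, none of the 10 had an unadjusted p under 0.05 in limma, against 948 of the 16705 genes. The confidence intervals of that fit were wide, from −4.02 to 2.42 for LOXL4 and from −0.87 to 0.29 for LOXL3. A return to control level could not be told from a partial one there. With the line as a block the intervals were −1.97 to 0.38 for LOXL4 and −0.70 to 0.12 for LOXL3. That of LOXL1 was −1.29 to −0.03 and excluded 0, but LOXL1 was not DE (limma adjusted p = 0.352). Against IL-1β alone, 0% of all genes were DE, and 0.00599% with the line as a block. None of the 10 genes was DE in either fit. In the fit without the block, 0 of the 10 had an unadjusted p under 0.05 in limma, against 464 of the 16705 genes. With the block, the 95% confidence interval of LOXL4 was 0.01 to 2.36 and excluded 0 (limma adjusted p = 0.587). These 2 comparisons share libraries with each other and with that of IL-1β against control.

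LOXL2 was higher with IL1Ra in each line, with 12018, 2186 and 8071 normalised counts in lines 6, 7 and 8 against 1520, 1965 and 4086 with IL-1β alone. The lines differed in extent, since line 6 reached 90.9% of its control, line 7 20.2% and line 8 146.1%. The log2-fold change was 1.37 with an interval of −0.15 to 2.89 (limma adjusted p = 1.00). LOXL4 was at 742, 51.2 and 54.0 with IL1Ra, above the IL-1β library and below the control in each of the 3 lines.

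LOX with IL1Ra held 17622, 2204 and 11086 normalised counts in lines 6, 7 and 8. That was above the IL-1β library in lines 6 and 8 and below it in line 7, where LOX was lower again than with IL-1β alone. PLOD2 (24751, 11783 and 13865) and P4HA1 (15652, 10562 and 13303) were above the IL-1β library in each line. With IL1Ra, lines 6 and 7 were at 81.4% and 64.3% of control for PLOD2 and at 84.6% and 79.9% for P4HA1. In line 8 these genes were already above control with IL-1β alone, at 169.3% and 206.4%. With IL1Ra they were further above it, at 204.7% and 238.4%. LOXL2, LOXL4, PLOD2 and P4HA1 were thus the 4 members higher with IL1Ra in every line, against 15.6% of all genes.

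All 10 genes were higher in line 6 with IL1Ra than with IL-1β alone, from 0.0029 on the log2 scale for LOXL3 to 2.98 for LOXL2, against 6 of 10 in line 7 and 6 of 10 in line 8. Against its own control, line 6 with IL1Ra was lower for 9 of 10 genes with a median log2 ratio of −0.45, and line 7 was lower for 10 of 10 with a median of −0.54. Line 8 was lower for 3 of 10, with a median of 0.65.

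P4HA2 was the member furthest in the other direction, with 5155, 8217 and 7324 normalised counts with IL1Ra and a log2-fold change of −0.43 against IL-1β alone (95% confidence interval −1.45 to 0.58). The P4HA2/P4HA1 ratio was lower with IL1Ra than with IL-1β in 3 of 3 lines, by 0.56 to 1.31 on the log2 scale. LOXL2/LOX was higher in 3 of 3 lines, by 0.27 to 0.81. SERPINH1 held 28029, 29606 and 41530, LOXL1 12522, 6873 and 6663, LOXL3 4110, 5544 and 3448, and PLOD1 11600, 12065 and 12668 in lines 6 to 8. Their groups overlapped with the IL-1β group, and their log2-fold changes lay between −0.05 and 0.28.

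Genes of proteins that are cross-linked were read beside the enzymes, as RNA. Of 9 listed, 7 were tested in the first batch, where 5 fell and 0 rose, with a median log2-fold change of −1.82. For this list and those below, the shares of all genes in the first batch were 7.9% DE and lower and 4.91% DE and higher. COL1A1 and COL1A2, the chains of type I collagen, had log2-fold changes of −1.83 and −1.33 (limma adjusted p = 0.00588 and 0.0136). The elastic fibre protein ELN fell by 5.37 (limma adjusted p = 0.0055), from 2387 to 98.2 mean normalised counts, and COL11A1 and COL5A1, which regulate fibril diameter, had log2-fold changes of −3.71 and −1.82 and were DE. COL5A3, at −1.65 (limma adjusted p = 0.224), was DE only with the line as a block, which made 6 of the 7 lower. All 7 had negative log2-fold changes in the second batch and 0 were DE. With the line as a block 1 was DE there, ELN, with a log2-fold change of −3.84 (limma adjusted p = 0.0339).

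Of 27 other listed genes of collagen processing, 25 were in the tables and 24 were tested in the first batch, where 8 fell, 1 rose and 15 were not DE. With the line as a block 9 fell there, since TGM2, a transglutaminase, was added (log2-fold change −1.86, limma adjusted p = 0.0485). The other two were not analysed here. The largest fall was in TLL1, a protease that removes procollagen C-propeptides and activates LOX, with 4380, 5988, 3698, 4780 and 4547 normalised counts in the controls of lines 1 to 5. The IL-1β libraries held 227, 404, 120, 412 and 135, so that TLL1 fell by 4.34 on the log2 scale (limma adjusted p = 3.50e-05). The related proteinase BMP1 was not DE, with a log2-fold change of 0.30.

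P3H2, a prolyl 3-hydroxylase, fell by 2.93 on the log2 scale, and ADAMTS14, an N-propeptide proteinase, fell by 2.41. Counts of ADAMTS14 were low, with a mean of 59.7 in control and 9.85 with IL-1β. The procollagen C-proteinase enhancer PCOLCE fell by 2.28, while its relative PCOLCE2 rose by 1.69. P4HTM, a transmembrane prolyl 4-hydroxylase, fell by 1.82. ADAMTS2 and P4HA3 were also DE, with log2-fold changes of −1.35 and −1.17, and SPARC fell from a mean of 253818 to 128338 normalised counts. Partners of the 10 genes that were not DE included P4HB, the shared prolyl 4-hydroxylase subunit (−0.25), and PLOD3 (0.37). FKBP10, a foldase needed for telopeptide lysine hydroxylation, was lower in 5 of 5 lines. Its log2-fold change of −0.97 passed the p threshold (limma adjusted p = 0.000616) and was just under the fold threshold.

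Of the 25 genes of this list tested in the second batch, 0 were DE. With the line as a block 4 were, all lower with IL-1β in 3 of 3 lines: TLL1 (log2-fold change −3.47), P3H2 (−3.07), ADAMTS14 (−1.90) and TGM2 (−4.66). The mean of ADAMTS14 was low there too, at 53.2 in control and 13.3 with IL-1β. With IL1Ra, TLL1 was higher than with IL-1β alone in 3 of 3 lines and lower than control in 3 of 3, and P3H2 was lower than control in 3 of 3. Neither comparison with IL1Ra had a DE gene from this list, with or without the block.

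**Figure D5:**
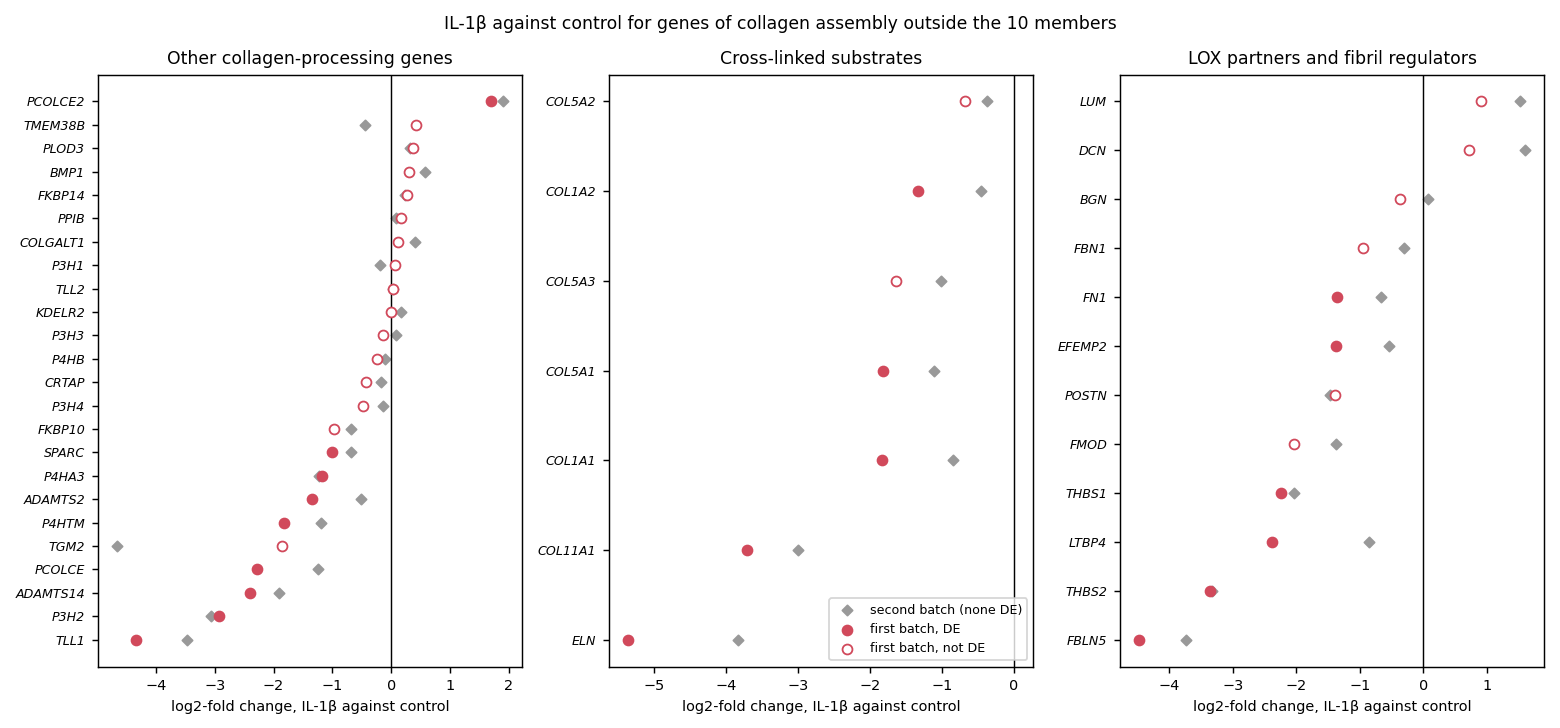
Change with IL-1β relative to control (horizontal axis, log2-fold change) for genes of collagen assembly outside the 10, in circles for the first batch (filled where DE) and grey diamonds for the second, where none was DE. Among the circles, TLL1 at −4.34, ELN at −5.37 and FBLN5 at −4.48 lie furthest to the left, and PCOLCE2 at 1.69 is the filled circle on the right.

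Of 12 partners of lysyl oxidases and regulators of fibrils, 6 fell in the first batch and 0 rose. FBLN5, a fibulin that brings LOXL1 to elastic fibres, went from a mean of 147 normalised counts to 5.98 (log2-fold change −4.48). The genes of the matricellular proteins THBS2 and THBS1 had log2-fold changes of −3.36 and −2.25, LTBP4 of −2.38 and the fibulin EFEMP2, which brings LOX to elastic fibres, of −1.37. FN1, the fibronectin gene, was the other member that fell, from a mean of 414465 to 160494 normalised counts. The small proteoglycans DCN and LUM were higher with IL-1β in 5 of 5 lines with log2-fold changes of 0.73 and 0.91, under the fold threshold. The fit with the block called 7 lower, with the collagen-binding proteoglycan FMOD added (log2-fold change −2.03, limma adjusted p = 0.0208). None was DE in the second batch, and THBS2 was DE with the line as a block (log2-fold change −3.32).

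Of 8 genes that supply cofactors of these enzymes and were tested in the first batch, 4 rose and 0 fell, with and without the line as a block. The 4 were the transferrin receptor TFRC (log2-fold change 1.96), the ascorbate transporter SLC23A2 (1.18), the 2-oxoglutarate-producing enzyme IDH1 (1.18) and the copper importer SLC31A1 (1.15). ATP7A, the pump that delivers copper to lysyl oxidases in the secretory pathway, was higher in 5 of 5 lines at 0.99, just under the fold threshold. The zinc transporter SLC39A13 had a log2-fold change of −0.54 and was lower in 5 of 5 lines, which passed the p threshold (limma adjusted p = 0.00231) and not the fold threshold. None of 9 was DE in the second batch, and TFRC (2.29), SLC31A1 (1.27) and IDH1 were DE and higher with the line as a block.

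PLOD2, P4HA1, P4HA2 and LOX are known targets of hypoxia-inducible factors, so 15 other hypoxia-responsive genes were read beside them. In the first batch 4 fell, 1 rose and 10 were not DE, with a median log2-fold change of −0.39. The log2-fold changes were −2.44 for ANKRD37, −2.25 for CA9, −2.25 for NDRG1 and −1.34 for BNIP3, while EPAS1, which encodes a hypoxia-inducible factor subunit, rose by 1.48. HIF1A, which encodes another such subunit, was higher in 5 of 5 lines. Its log2-fold change of 0.85 passed the p threshold (limma adjusted p = 0.00186) and not the fold threshold. Under the block 5 fell, with the pyruvate dehydrogenase kinase PDK1 added (log2-fold change −1.14, limma adjusted p = 0.0133). None was DE in the second batch, where the median was 0.22, and EPAS1 was DE with the line as a block (1.22). NDRG1 was lower with IL-1β than control in 3 of 3 lines and higher with IL1Ra than with IL-1β in 3 of 3, with log2-fold changes of −1.42 and 1.93 that were not DE. Over the list, 11 of 15 had a log2-fold change above 0 for IL-1β against control. For IL-1β + IL1Ra against control it was 14 of 15, with a median of 0.56. None was DE in that comparison.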

How the data were processed

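The authors quantified the reads of 19 libraries with Salmon against the EquCab3.0 transcriptome, imported gene totals with tximport and scaled each batch with DESeq2 1.36. The deposited signal values are these normalised counts, in separate tables for the batches, and tests were made within a table. Of the values under 10, between 56.0% and 73.8% per library were whole reads within 0.05 of a read, so the underlying counts and depth could not be recovered for a count model.

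Here log2(normalised count + 1) was fitted with limma 3.58.1 (lmFit, eBayes with trend) in R 4.3.3, over genes reaching 10 normalised counts in 5 or more libraries of the first batch or 3 or more of the second, with Benjamini-Hochberg adjustment over all genes tested. This scale understates changes of genes with low counts. Exact permutation tests used scipy 1.17.1. The design had no block. The shared donor pairs the libraries of a line, whose deviations from the condition means correlated at 0.35 to 0.58 over 5 pairs in the first batch and 0.54 to 0.79 over 9 in the second (different lines −0.36 to 0.29 and −0.62 to 0.25). Alternatives were the line as a block, other pseudocounts, filters and scalings, no trend, and leaving out each line, also together with the block. Scripts were tested on simulated data.

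The members and lists were chosen with earlier results of these data known. Named are the 10 members, COL1A1, COL1A2 and the genes of 5 lists DE in the first batch, at most 5 per direction. SPARC, P4HA3, ADAMTS2, FN1, BMP1, P4HB, FKBP10, PLOD3, TGM2, DCN, LUM, ATP7A, SLC39A13, COL5A3, FMOD, PDK1, HIF1A and single markers were named after their values were seen. The RefSeq table at hand, which holds all 10 symbols, is of another horse assembly, so no coordinates are given.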

Additional observations from a re-analysis of the deposited data

How the results depend on the processing

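In the first batch 6 of the 10 genes were DE in each alternative fit except without line 1, where 5 were (LOXL1 was lost), and 7 were by adjusted p value alone, which adds PLOD1. In the second batch 0 of the 10 were DE in any alternative counted here. Fits with the line as a block and 1 line also left out are not in these counts of members. Without line 6 such fits gave 1421 DE genes for IL-1β against control. They gave 537 for IL-1β + IL1Ra against control and 172 for IL-1β + IL1Ra against IL-1β. Without line 8 they gave 33 for IL-1β against control and 4 for IL-1β + IL1Ra against control. Over all genes, the paired fit with the line as a block gave 2386 DE genes in the first batch in place of 1885, and in the second 865 in place of 57 for IL-1β against control, 42 in place of 2 for IL-1β + IL1Ra against control, and 1 in place of 0 for IL-1β + IL1Ra against IL-1β. The block changed no call among the 10 genes. Adjusted p value alone gave 4078 genes in the first batch. In the second, IL-1β against control gave 34 without trend and 34 with 2 conditions in the fit, and IL-1β + IL1Ra against control gave 1 with libraries scaled to equal totals and 0 with 2 conditions in the fit. Leaving out each line gave 1374 to 1729 genes for lines 1 to 5 and, for lines 6 to 8 in the order of comparisons above, 0 (without line 7 or line 8) to 364 (without line 6), 0 to 63 and 0 to 10. Scaling to equal totals moved the median log2-fold change of all genes to −0.19 for IL-1β against control and 0.11 for IL-1β + IL1Ra against IL-1β in the second batch, made PLOD1 −0.09 there in place of 0.09, and made 38.6% of the 57 DE genes lower in place of 21.1%.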
